A study of Mus musculus with 6 samples.

Results

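RGS proteins, the regulators of G protein signalling, are encoded in the mouse by a family of genes, of which 8 were followed here in monocytes of thrombocytopenic mice: Rgs1, Rgs2, Rgs3, Rgs10, Rgs14, Rgs16, Rgs18 and Rgs19. The 8 genes were chosen by name, with earlier results of these data known. They are 8 of the 21 Rgs genes looked up, and of the 56832 genes in the count tables. RNA was sequenced from cells labelled as monocytes of peripheral blood. The thrombocytopenic group (3 libraries) came from PF4cre-iDTR mice. In these animals a Cre driver built on the megakaryocyte gene Pf4 (platelet factor 4) makes the cells that express it sensitive to diphtheria toxin by turning on an inducible toxin receptor (iDTR). Activity of the driver in the sequenced cells was not tested. Wild-type mice gave the 3 control libraries. Diphtheria toxin is listed as the treatment of both groups, so genotype and loss of platelets cannot be told apart. The labels used here give no age, strain, sex, toxin dose or time after toxin and do not state that each library came from a separate animal, so the p-values reflect the spread among libraries, which may be technical.

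A receptor that couples to a G protein loads GTP onto the alpha subunit, which then separates from the beta and gamma subunits, and both parts signal until the alpha subunit hydrolyses its GTP. RGS proteins speed up that hydrolysis and so shorten the signal, mostly for alpha subunits of the Gi and Gq classes. In leukocytes they are known for limiting the response to chemokines and other chemoattractants. Members of the R4 subfamily (Rgs1, Rgs2, Rgs3, Rgs16 and Rgs18 here) are mostly small proteins with little beside the RGS domain. The R12 subfamily is represented by Rgs10 and Rgs14, and the RZ subfamily by Rgs19.

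Promoter sequences are shown for the member with the largest difference between the groups (Rgs2), for a second member that was lower (Rgs16) and for an abundant member that was higher (Rgs10). Each line gives the 250 bases before the annotated start of transcription on the gene's own strand, from RefSeq on build GRCm38.p6. The window of Rgs2 is chr1:144004150-144004399 on the minus strand, that of Rgs16 is chr1:153740103-153740352 on the plus strand and that of Rgs10 is chr7:128418173-128418422 on the minus strand. Capitals mark TGACG (the core of the cAMP response element, bound by CREB), CCAAT (the CCAAT box) and GGGCGG (the GC box bound by Sp1) on either strand.
Rgs2: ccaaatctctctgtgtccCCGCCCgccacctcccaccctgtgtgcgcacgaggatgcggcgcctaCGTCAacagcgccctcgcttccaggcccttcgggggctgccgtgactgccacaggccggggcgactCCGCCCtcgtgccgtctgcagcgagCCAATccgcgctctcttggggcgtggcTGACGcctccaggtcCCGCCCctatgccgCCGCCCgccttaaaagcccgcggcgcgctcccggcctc
Rgs16: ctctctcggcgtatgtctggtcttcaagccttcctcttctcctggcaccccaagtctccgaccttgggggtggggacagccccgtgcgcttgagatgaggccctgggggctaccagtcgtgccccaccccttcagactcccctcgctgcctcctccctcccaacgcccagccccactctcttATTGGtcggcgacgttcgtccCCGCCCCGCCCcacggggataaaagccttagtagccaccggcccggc
Rgs10: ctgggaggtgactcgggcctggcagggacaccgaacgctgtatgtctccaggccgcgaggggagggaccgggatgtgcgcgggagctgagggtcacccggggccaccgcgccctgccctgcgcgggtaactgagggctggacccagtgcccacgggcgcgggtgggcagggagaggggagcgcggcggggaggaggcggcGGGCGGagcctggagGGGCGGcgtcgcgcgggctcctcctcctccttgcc
In the Rgs2 window TGACG occurred 185 and 67 bases before the start, the more distant match on the opposite strand, beside 4 GC boxes and 1 CCAAT box. The Rgs16 window held 2 GC boxes that share 1 base, and 1 CCAAT box, and no TGACG. The Rgs10 window held 2 GC boxes and neither of the other motifs. Over all 32851 promoter windows of that length in the table, TGACG was present in 17.8%, CCAAT in 33.8% and GGGCGG in 32.7%. The complete palindrome TGACGTCA (1.55% of windows), which contains TGACG on both strands, the AP-1 motif TGANTCA (6.75%) and TATAAA (12.4%) were searched as well and none of these occurred in the windows of Rgs2, Rgs16 or Rgs10. The table held 8 windows for 5 of the members (Rgs2, Rgs3, Rgs10, Rgs16 and Rgs19); Rgs1, Rgs14 and Rgs18 had no entry. A match describes the letters of the window only.

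All 8 members had enough counts to be tested. With edgeR's quasi-likelihood test over all 12488 genes and a Benjamini-Hochberg adjusted p threshold of 0.05, 3 members were higher in thrombocytopenic than in control monocytes (Rgs3, Rgs10 and Rgs19), 3 were lower (Rgs1, Rgs2 and Rgs16) and 2 did not pass (Rgs14 and Rgs18). The background was high: 45.1% of all tested genes were called, 22.4% as higher and 22.7% as lower. The groups did not overlap in 6 of the 8 members, against 51.3% of all tested genes. The median log2 fold change over the members was -0.02 and that of all tested genes was 0, while the median size of the log2 fold change regardless of sign was 0.40 over the members and 0.15 over all tested genes. In RNA from a whole population of cells, fewer cells of a type and less RNA per cell cannot be told apart.

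**Figure D1:**
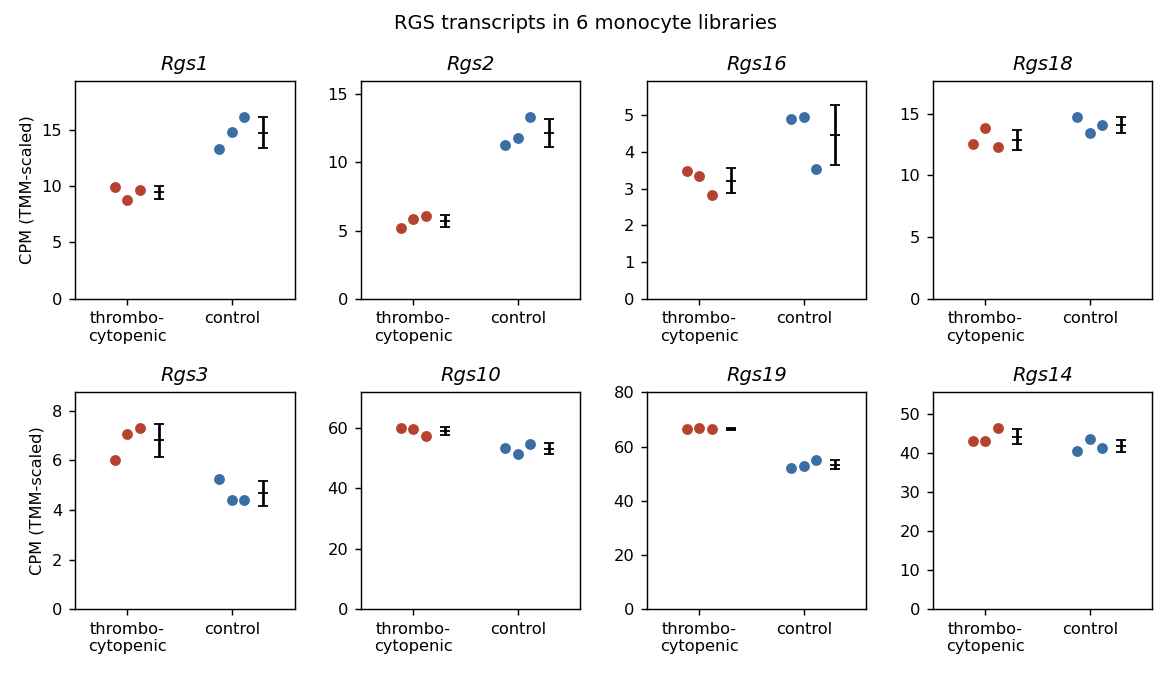
CPM (read counts scaled to a common library size) of each RGS gene in the 3 thrombocytopenic libraries (left in each panel) and the 3 control libraries (right), with a point per library and the mean with its SD in black beside them; axes start at 0. Rgs1, Rgs2 and Rgs16 lie lower in the thrombocytopenic libraries, Rgs3, Rgs10 and Rgs19 lie higher, and the points of Rgs14 and Rgs18 overlap.

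The R4 subfamily held the 3 lower members, 1 higher member and 1 that did not pass. Rgs2, which acts preferentially on Gq and is known as a brake on Gq-coupled receptors, had the largest difference. In CPM, the read count scaled to a common library size, it stood at 5.22, 5.86 and 6.09 in the thrombocytopenic libraries and at 11.3, 11.8 and 13.3 in the control libraries. Every thrombocytopenic library was below every control library, and the gap between the groups exceeded the range within either. The mean was 5.73 ± 0.451 CPM in thrombocytopenic and 12.2 ± 1.06 CPM in control monocytes (SD, n = 3 each), 2.13-fold lower in thrombocytopenic cells (log2 fold change -1.09, standard error 0.089, adjusted p = 2.1e-15). Rgs2 was the only member among the 489 tested genes that were called and differed by at least 2-fold.

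Rgs1, known in lymphocytes for damping migration toward chemokines, had 9.94, 8.78 and 9.62 CPM in the thrombocytopenic libraries and 13.3, 14.8 and 16.1 CPM in the control libraries. The groups did not overlap. Rgs1 was 1.56-fold lower in thrombocytopenic monocytes (log2 fold change -0.64, standard error 0.077, adjusted p = 4.02e-10). Markers of other cell types that can express Rgs1 were measured beside it. The 6 dendritic cell markers summed to 15.3 to 18.3 CPM in thrombocytopenic and 30.9 to 35.0 CPM in control libraries. Most of that sum was Ccr7, a chemokine receptor of migrating dendritic cells. Ccr7 stood at 15.2 ± 1.34 CPM in thrombocytopenic and 28 ± 1.83 CPM in control libraries. All 4 dendritic markers that could be tested were lower, against 22.7% of all tested genes. The 7 B cell markers summed to 13.4 to 15.2 CPM in thrombocytopenic and 11 to 13.1 CPM in control libraries, with 5 of them under 1 CPM in every library. The 9 T and NK cell markers summed to 0.727 to 0.911 CPM in thrombocytopenic and 1 to 1.6 CPM in control libraries, with 5 of them at 0 in every library. The part of dendritic, B, T or NK cells in the Rgs1 result was not tested.

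Rgs16, a regulator of Gi- and Gq-coupled signals that is known as an inducible gene in leukocytes, had the lowest counts of the lower members. It stood at 3.48, 3.35 and 2.82 CPM in the thrombocytopenic libraries and at 4.90, 4.94 and 3.52 CPM in the control libraries. The groups did not overlap, but the lowest control library was barely above the highest thrombocytopenic library. The gene was 1.39-fold lower in thrombocytopenic monocytes (log2 fold change -0.47, standard error 0.14, adjusted p = 0.0035). It rested on 100 to 178 reads per library, a counting error of 10% at the lowest, and the control libraries varied by 18.2% of their mean. Without control replicate 2 the call was lost (log2 fold change -0.38, adjusted p = 0.0575), and over the 13 alternatives the adjusted p ran between 3e-04 and 0.0575.

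Rgs3, which occurs in long and short isoforms and acts on Gi and Gq, was the higher R4 member. It had 6.03, 7.07 and 7.30 CPM in the thrombocytopenic libraries and 5.26, 4.39 and 4.39 CPM in the control libraries. No control library reached the lowest thrombocytopenic library. Rgs3 was 1.46-fold higher in thrombocytopenic monocytes (log2 fold change 0.55, standard error 0.11, adjusted p = 3.42e-05). Counts per gene do not tell its isoforms apart.

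Rgs18, which is known for its abundance in megakaryocytes and platelets and is also present in monocytes, had 12.5, 13.8 and 12.3 CPM in the thrombocytopenic libraries and 14.7, 13.4 and 14.1 CPM in the control libraries. The groups overlapped, since thrombocytopenic replicate 2 was above control replicate 2. The log2 fold change was -0.13 with a 95% interval from -0.27 to 0.01 (standard error 0.071, adjusted p = 0.146), and Rgs18 passed the threshold under none of the 13 alternatives. Platelet markers were measured beside it. The 16 markers summed to 1223 to 1295 CPM in thrombocytopenic and 1014 to 1059 CPM in control libraries, a sum carried by Pf4 and Ppbp, the chemokines of platelet granules. Pf4, the gene on which the Cre driver is built, stood at 1094 ± 38.8 CPM in thrombocytopenic and 924 ± 23.4 CPM in control libraries. Ppbp stood at 151 ± 2.47 CPM in thrombocytopenic and 95.2 ± 1.78 CPM in control libraries. Which cells these reads came from was not tested. Without Pf4 and Ppbp the other 14 markers summed to 2.51 to 4.08 CPM in thrombocytopenic and 11.3 to 12.6 CPM in control libraries. Gp1bb, a subunit of the platelet receptor for von Willebrand factor, was at 0 in every library, and Gp9 of the same complex was at 0 in all thrombocytopenic but not in the control libraries; 9 of the 16 were under 1 CPM in every library. Of the 9 platelet markers that could be tested 6 were lower, 2 higher (Pf4 and Ppbp) and 1 did not pass. The part of platelet RNA in the values of Rgs18, and of Rgs10 below, was not tested.

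Of the R12 subfamily, Rgs10 rose and Rgs14 did not pass. Rgs10, a small Gi-directed regulator known in platelets and in microglia and macrophages, had 59.9, 59.5 and 57.3 CPM in the thrombocytopenic libraries and 53.3, 51.3 and 54.7 CPM in the control libraries. The groups did not overlap. The difference was small, 1.11-fold higher in thrombocytopenic monocytes (log2 fold change 0.15, standard error 0.040, adjusted p = 0.00149). Rgs14, a scaffold that combines an RGS domain with Ras-binding domains and a GoLoco motif for inactive Gi, had 43.2, 43.1 and 46.5 CPM in the thrombocytopenic libraries and 40.6, 43.6 and 41.4 CPM in the control libraries. Control replicate 2 was above 2 of the thrombocytopenic libraries, so the groups overlapped. The log2 fold change was 0.08 with a 95% interval from -0.01 to 0.17 (standard error 0.045, adjusted p = 0.159), and none of the 13 alternatives brought it past the threshold.

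Rgs19, of the RZ subfamily and also known as GAIP for its binding to a Gi alpha subunit, had 66.5, 66.9 and 66.4 CPM in the thrombocytopenic libraries and 52.1, 52.9 and 55.1 CPM in the control libraries. All thrombocytopenic libraries were above the control libraries. Their coefficient of variation was 0.338%, against 2.83% in the control libraries. Counting error alone was 2.78% at the lowest count, that of control replicate 1. The smaller value therefore does not show a tighter group. Rgs19 was 1.25-fold higher in thrombocytopenic monocytes (log2 fold change 0.32, standard error 0.038, adjusted p = 5.2e-10). With 1298 to 2484 reads per library it was also among the best counted members.

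**Figure D2:**
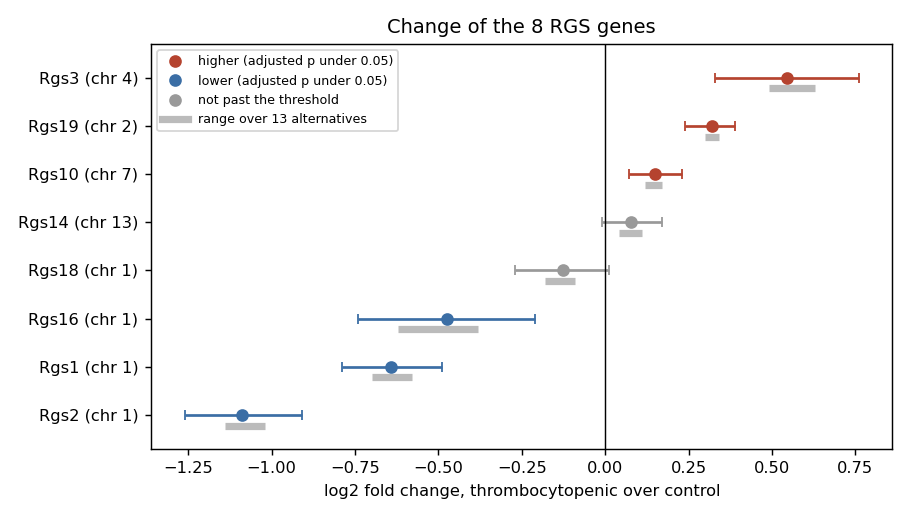
Log2 fold change of the 8 RGS genes, thrombocytopenic over control, with 95% intervals as capped lines and the range over 13 alternatives as grey bars beneath; colour gives the call. Rgs2 lies farthest from 0 at -1.09 and Rgs3 highest at 0.55, while the intervals of Rgs18 and Rgs14 cross 0.

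Levels were compared between members per kilobase of merged exons (GENCODE M21), since CPM alone favours long genes. Rgs10 and Rgs19 were highest, at 34.4 ± 0.80 and 29.9 ± 0.101 CPM per kb in thrombocytopenic and 31.0 ± 1.01 and 23.9 ± 0.678 CPM per kb in control monocytes (SD, n = 3 each). Rgs14 followed with 10.4 CPM per kb in thrombocytopenic and 9.88 CPM per kb in control monocytes, then Rgs18 with 6.33 CPM per kb in thrombocytopenic and 6.91 CPM per kb in control monocytes. These 4 did not overlap one another in either group.

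The other members were all lower. Rgs2 had 1.58 CPM per kb in thrombocytopenic and 3.35 CPM per kb in control monocytes, and Rgs1 had 1.36 CPM per kb in thrombocytopenic and 2.12 CPM per kb in control monocytes. Rgs16 stood at 1.38 CPM per kb in thrombocytopenic and 1.90 CPM per kb in control monocytes, and Rgs3 was lowest with 0.629 CPM per kb in thrombocytopenic and 0.433 CPM per kb in control monocytes. The ranges of Rgs16 overlapped those of Rgs1 in both groups and that of Rgs2 in the thrombocytopenic group, so these neighbours in the order did not differ beyond their spread. With the median length of protein-coding transcripts in place of merged exons, Rgs10, Rgs19 and Rgs14 kept the top places, but Rgs1 (4.44 CPM per kb in thrombocytopenic and 6.94 in control monocytes) moved above Rgs2 (3.17 CPM per kb in thrombocytopenic and 6.74 in control monocytes) and was level with Rgs18 (6.91) in control monocytes. Rgs3 (2.78 CPM per kb in thrombocytopenic and 1.91 in control monocytes) was then above Rgs16 (1.38 CPM per kb in thrombocytopenic and 1.90 in control monocytes) in the thrombocytopenic group and level with it in the control group. The order below the top 3 therefore depends on the isoform length assumed.

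**Figure D3:**
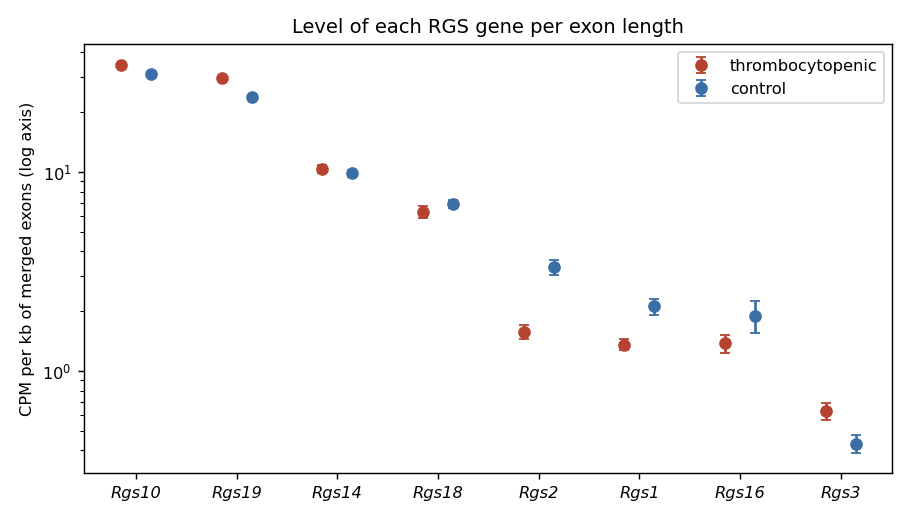
Level of each RGS gene as CPM per kb of merged exons on a log axis; points are means and bars are SD over 3 libraries, thrombocytopenic left of control. Rgs10 and Rgs19 have the highest means in both groups and Rgs3, at 0.629 in thrombocytopenic and 0.433 in control monocytes, the lowest.

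In the mouse genome 4 of the members (Rgs1, Rgs2, Rgs16 and Rgs18) are on chromosome 1, where 3 were lower, none was higher and 1 did not pass. The other 4, on chromosomes 2 (Rgs19), 4 (Rgs3), 7 (Rgs10) and 13 (Rgs14), included the 3 higher members and no lower member. By RefSeq order, the 5 protein-coding genes from Rgs2 to Rgs18 on chromosome 1 are all Rgs genes (Rgs2, Rgs13, Rgs1, Rgs21 and Rgs18), and Rgs16 lies elsewhere on that chromosome. Rgs13 and Rgs21 had no count in any library, so within this run Rgs2 and Rgs1 were lower, Rgs18 did not pass and the other two had no reads. Of all tested genes 22.4% were called higher and 22.7% lower. This grouping by chromosome was chosen after the values were seen and carries no test.

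None of the 13 other Rgs genes passed the threshold. Rgs12, a relative of Rgs14 with the same Ras-binding and GoLoco parts, had 2.97, 3.18 and 2.60 CPM in the thrombocytopenic libraries and 3.70, 3.86 and 2.96 CPM in the control libraries. The groups overlapped (log2 fold change -0.27, standard error 0.14, adjusted p = 0.117), although without control replicate 3 the gene was called lower (log2 fold change -0.38, adjusted p = 0.0449; range over 13 alternatives 0.0449 to 0.396). Rgs9, of the R7 subfamily and best known from retina and striatum, was at 0.429 ± 0.111 CPM in thrombocytopenic and 0.558 ± 0.138 CPM in control monocytes (log2 fold change -0.38, standard error 0.35, adjusted p = 0.399). Too low to test were Rgs11 with 21 reads in the thrombocytopenic and 24 in the control libraries, Rgs8 with 4 in each group, and Rgs5 with 0 in the thrombocytopenic and 1 in the control libraries. The other 8 (Rgs4, Rgs6, Rgs7, Rgs13, Rgs17, Rgs20, Rgs21 and Rgs22) had no reads, which allows up to 0.0799 to 0.121 CPM depending on the library. That floor is no bound for Rgs20, whose exons overlap those of the abundant gene Atp6v1h on the opposite strand, since it is not known how shared reads were assigned.

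Of the G protein alpha subunits, the substrates of RGS proteins, 9 of 13 could be tested. Of these 4 were higher, 4 lower and 1 did not pass, with a median log2 fold change of -0.04. The background for this list and those below is all tested genes, of which 22.4% were called higher and 22.7% lower. The Gi subunits that RGS proteins act on were slightly higher: Gnai3 averaged 272 ± 3.05 CPM in thrombocytopenic and 236 ± 0.683 CPM in control monocytes (log2 fold change 0.20, adjusted p = 6.48e-09), and Gnai2, the main Gi subunit of leukocytes, averaged 756 ± 9.89 CPM in thrombocytopenic and 689 ± 13.6 CPM in control monocytes (log2 fold change 0.13, adjusted p = 9.49e-06). Gnaq, the ubiquitous Gq subunit, averaged 71.8 ± 1.64 CPM in thrombocytopenic and 66.4 ± 0.638 CPM in control monocytes (log2 fold change 0.11, adjusted p = 0.0102). Gna15, the Gq-class subunit of blood cells, fell to 15.5 ± 1.02 CPM in thrombocytopenic monocytes, against 30.7 ± 1.25 CPM in control monocytes (log2 fold change -0.99, adjusted p = 3.86e-21). Gna13, an alpha subunit outside the Gi and Gq classes, fell to 333 ± 2.98 CPM in thrombocytopenic monocytes, against 541 ± 5.73 CPM in control monocytes (log2 fold change -0.70, adjusted p = 6.65e-30), and its relative Gna12 was lower as well (log2 fold change -0.24, adjusted p = 3.44e-07). Gnal, the Gs-class subunit of the olfactory system, had 0.353 ± 0.0807 CPM in thrombocytopenic and 0.374 ± 0.102 CPM in control monocytes and did not pass.

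Of the beta and gamma subunits 11 of 16 could be tested; 4 were higher, 4 lower and 3 did not pass (median log2 fold change -0.05). The largest difference was that of Gng11, a gamma subunit known to be abundant in platelets, with 0.991 ± 0.0134 CPM in thrombocytopenic and 18.6 ± 1.74 CPM in control monocytes, 18.8-fold lower (log2 fold change -4.23, adjusted p = 1.71e-35). In direction it went with the sum of the platelet markers other than Pf4 and Ppbp given above, though not with each of them. Nrgn had 0.0179 CPM in thrombocytopenic and 3.69 CPM in control libraries, and Clec1b had 0.725 and 3.53 CPM. Of the 9 tested platelet markers 6 were lower, 2 higher (Pf4 and Ppbp) and 1 did not pass. That one was Selp, with 0.487 CPM in thrombocytopenic and 0.439 CPM in control libraries. The part of platelet RNA in the Gng11 result was not tested. Gngt2 (log2 fold change -0.79) and Gnb4 (-0.55) were lower too. Gnb1 (log2 fold change 0.17), Gng2 (0.22) and Gnb2 (0.12) were higher by small amounts, and Gng5 had 51.6 ± 1.35 CPM in thrombocytopenic and 48.7 ± 1.07 CPM in control monocytes without passing (adjusted p = 0.101).

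Among 5 other regulators of alpha subunits, 2 were higher, 1 lower and 2 did not pass (median log2 fold change 0.12). Gpsm2, which holds GDP-bound Gi through GoLoco motifs as Rgs14 does, had 45.2 ± 1.71 CPM in thrombocytopenic and 70.3 ± 3.26 CPM in control monocytes (log2 fold change -0.64, adjusted p = 2.36e-19). Ric8a, a chaperone of alpha subunits, was higher (log2 fold change 0.29, adjusted p = 2.8e-08), and Gpsm3 was higher by 0.12 on the log2 scale (adjusted p = 0.0479), a call lost under 10 of 13 alternatives. Ric8b had 10.1 ± 0.0252 CPM in thrombocytopenic and 10.3 ± 0.919 CPM in control monocytes. Of the 7 receptor kinases and arrestins that could be tested, which switch off the receptors themselves, 2 were higher, 1 lower and 4 did not pass (median log2 fold change 0.07). Grk5 averaged 24.7 ± 0.595 CPM in thrombocytopenic and 16.6 ± 0.723 CPM in control monocytes (log2 fold change 0.57, adjusted p = 5.01e-12), and Arrb1 averaged 48.7 ± 2.62 CPM in thrombocytopenic and 35.0 ± 1.04 CPM in control monocytes (log2 fold change 0.48, adjusted p = 5.14e-13). Grk2 was lower by a small amount (log2 fold change -0.06, adjusted p = 0.0457), a call lost under 8 of 13 alternatives. Arrb2 had 236 ± 6.69 CPM in thrombocytopenic and 236 ± 3.79 CPM in control monocytes (adjusted p = 0.964).

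**Figure D4:**
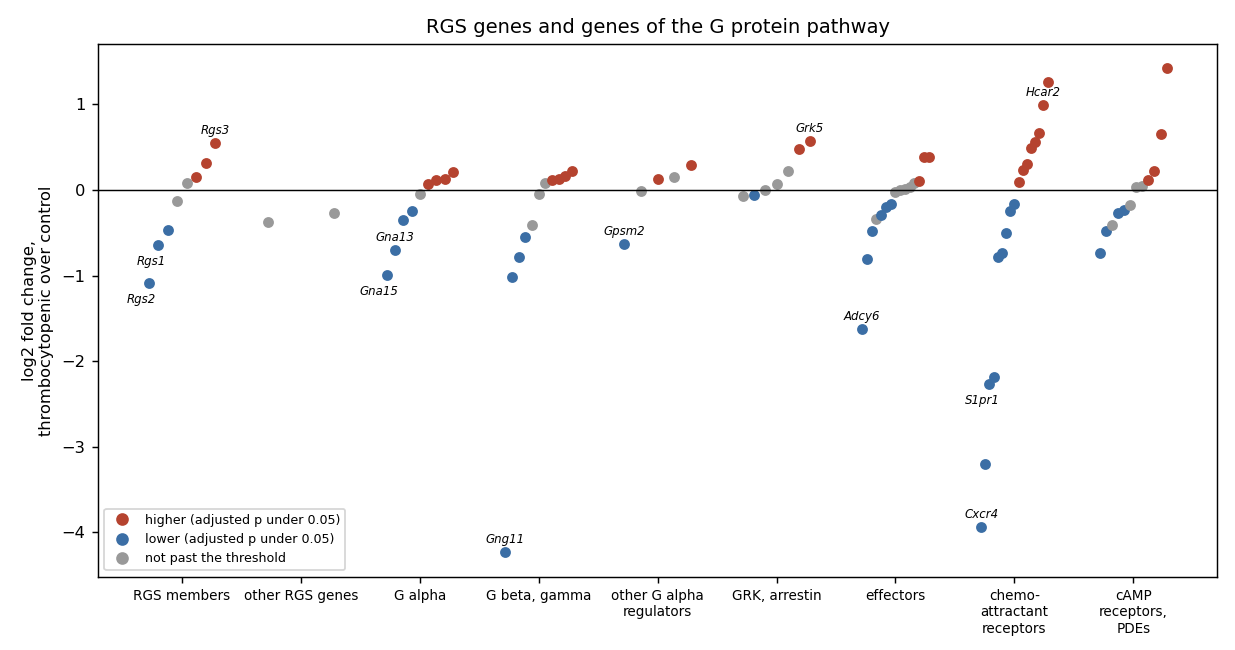
Log2 fold change, thrombocytopenic over control, of each tested gene in the RGS set and in 8 lists of the G protein pathway, ordered by size within a list; red marks genes called higher, blue genes called lower and grey genes that did not pass. The RGS members span -1.09 to 0.55, a narrower span than the chemoattractant receptors, where Cxcr4 reaches -3.94.

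Chemoattractant receptors, whose signals RGS proteins shorten, spanned a wider range of log2 fold changes than the 8 members. All 17 receptors could be tested and all passed, 8 higher and 9 lower (median log2 fold change -0.16). Of all tested genes 45.1% passed, 22.4% as higher and 22.7% as lower. The count of higher receptors was 6 without thrombocytopenic replicate 1 and with DESeq2. Hcar2, the receptor for niacin and ketone bodies, had 170 ± 1.49 CPM in thrombocytopenic and 85.7 ± 1.92 CPM in control monocytes (log2 fold change 0.99, adjusted p = 1.04e-32). Fpr1, the formyl peptide receptor, had 869 ± 4.20 CPM in thrombocytopenic and 547 ± 20.6 CPM in control monocytes (log2 fold change 0.67, adjusted p = 7.67e-29), and C5ar1, the receptor of complement fragment C5a, was higher by 0.49 on the log2 scale (adjusted p = 3.81e-16). Lower were Cxcr4, which retains leukocytes in bone marrow, with 0.672 ± 0.0304 CPM in thrombocytopenic and 10.4 ± 0.577 CPM in control monocytes (log2 fold change -3.94, adjusted p = 5.07e-30), S1pr1, a receptor for egress into blood, at a log2 fold change of -2.27 (adjusted p = 7.42e-34), and Cx3cr1, the fractalkine receptor, at -2.19 (adjusted p = 7.36e-38). These receptors couple mainly to Gi.

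Of 12 tested cAMP-raising receptors and phosphodiesterases, 4 were higher, 4 lower and 4 did not pass (median log2 fold change -0.07). Pde4b, which degrades cAMP, had 292 ± 6.32 CPM in thrombocytopenic and 185 ± 2.0 CPM in control monocytes (log2 fold change 0.65, adjusted p = 7.79e-27). The prostaglandin E2 receptors differed in direction, with Ptger4 higher (log2 fold change 0.22) and Ptger2 lower (-0.48). Pde3b (-0.74) and the adenosine receptor Adora2b (-0.23) were lower, and the prostacyclin receptor Ptgir had 57.3 ± 1.10 CPM in thrombocytopenic and 55.8 ± 0.313 CPM in control monocytes (adjusted p = 0.417).

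Of 15 tested effectors, 3 were higher, 6 lower and 6 did not pass (median log2 fold change -0.02). Pik3r6 and Pik3r5 encode the adaptors of the phosphoinositide 3-kinase that beta and gamma subunits activate. Pik3r6 had 87.6 ± 3.22 CPM in thrombocytopenic and 67.2 ± 0.397 CPM in control monocytes (log2 fold change 0.38, adjusted p = 3.04e-13), and Pik3r5 was higher by 0.10 on the log2 scale. The catalytic subunit Pik3cg had 293 ± 4.84 CPM in thrombocytopenic and 292 ± 6.38 CPM in control monocytes and did not pass. The adenylyl cyclases differed in direction: Adcy6 (log2 fold change -1.62) and Adcy3 (-0.80) were lower, and Adcy9 was higher (0.38, adjusted p = 0.0112), a call lost without thrombocytopenic replicate 3 (0.27, adjusted p = 0.138; range over 13 alternatives 0.00461 to 0.138). Prex1, a Rac exchange factor activated by beta and gamma subunits, was lower (log2 fold change -0.20).

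Genes with the profile most like that of Rgs2 over the 6 libraries were found by the distance between log2 CPM values centred on each gene's own mean. The 3 nearest were Pdpn (podoplanin, a membrane glycoprotein) at a distance of 0.166, Fnip2 (a folliculin-binding protein) at 0.205 and Synj2 (a phosphoinositide phosphatase) at 0.216, against a median distance of 1.37 over all tested genes. Pdpn stood at 114, 118 and 125 CPM in the thrombocytopenic libraries and at 260, 256 and 271 CPM in the control libraries. Fnip2 stood at 92.9, 95.6 and 101 CPM in the thrombocytopenic libraries and at 189, 205 and 197 CPM in the control libraries, and Synj2 at 6.29, 7.10 and 8.25 CPM in the thrombocytopenic libraries and at 15.3, 14.5 and 15.2 CPM in the control libraries. As with Rgs2, no thrombocytopenic library reached a control library in any of the 3 genes. With 2 groups of 3 libraries any gene that was lower by a like amount scores as near, and 153 genes lay within 2 times the distance of the third.

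**Figure D5:**
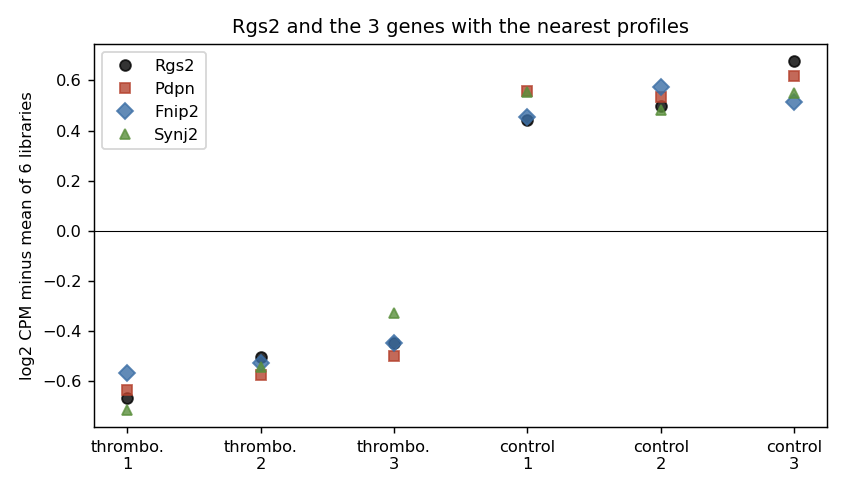
Log2 CPM of Rgs2, Pdpn, Fnip2 and Synj2 in each of the 6 libraries, minus the gene's mean over the 6, with the thrombocytopenic libraries at the left. All 4 genes lie below 0 in the 3 thrombocytopenic libraries and above 0 in the 3 control libraries.

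The files held 24842319 to 37552029 counts per library. Log2 CPM profiles correlated at 0.9951 to 0.9964 within groups and at 0.9855 to 0.9867 between groups, across genes, and no library stood apart. The 10 monocyte markers summed to 20997 to 21141 CPM in thrombocytopenic and 18225 to 18610 CPM in control libraries. Most of that sum was Lyz2, at 13699 ± 115 CPM in thrombocytopenic and 11980 ± 260 CPM in control libraries. The mean log2 CPM of the list, thrombocytopenic minus control, was -0.117. Of the 10 markers 7 were higher and 3 lower (Ly6c2, Fcgr1 and Cx3cr1), against 22.4% and 22.7% of all tested genes. Itgam was highest in fold (log2 fold change 0.31) and Cx3cr1 lowest. The 9 neutrophil markers summed to 327 to 338 CPM in thrombocytopenic and 232 to 248 CPM in control libraries, nearly all of it Mmp8 at 322 ± 5.05 CPM in thrombocytopenic and 227 ± 7.21 CPM in control libraries, while Ly6g, a defining marker of neutrophils, had 0 reads in the thrombocytopenic and 1 in the control libraries. Basophil and eosinophil markers summed to 0.536 to 0.727 CPM in thrombocytopenic and 5.09 to 5.55 CPM in control libraries, and erythroid markers to 0 to 0.0559 CPM in thrombocytopenic and 1.89 to 2.41 CPM in control libraries. The exact permutation test gave every marker sum printed here a two-sided p of 0.1, the smallest that 3 against 3 libraries allow, and the part of these cells in the RGS values was not tested.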

How the data were processed

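The authors deposited raw read counts for every gene, 1 table a library. The submitters' processing notes name STAR 2.7.9a, featureCounts from Subread 2.0.1, Salmon 1.5.2 and fastp 0.23.1. Their order and settings, the genome build, the annotation and any use of strand in counting are not given in the sources consulted. Per the labels' protocols, libraries were poly(A)-selected and strand-marked. Since it is not known whether counting used the strand, reads of overlapping or antisense genes may be shared. Among the members, exons overlap in GENCODE M21 only for Rgs16, with an antisense gene without counts.

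After filtering with filterByExpr (at least 10 counts, total of 15), 12488 genes were tested together in R 4.3.3 with edgeR 4.0.16 (robust quasi-likelihood fit, group as the only term, TMM, two-sided, Benjamini-Hochberg). CPM (counts scaled to a library total of 1e6 reads) use TMM-scaled totals, and errors are SD over 3 libraries. An SD over 3 libraries can fall below counting error, as it did for several genes printed here. Examples are Rgs19, Gng11, Ric8b and Cxcr4 in the thrombocytopenic group and Gnai3, Pik3r6 and Ptgir in the control group. Such a small SD does not show a tighter group. The standard error was taken as the size of the log2 fold change over the square root of F, and 95% intervals span 1.96 standard errors. Floors of 3 counts cover counting error only. The fitting steps were also run on simulated counts. Far fewer genes were changed there than were called here, so that run cannot give their error rate in these data. The 13 alternatives are given in the closing part; DESeq2 1.42.0 and limma 3.58.1 were among them.

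The members and the lists were chosen with earlier results of these data known. Named are all members, other Rgs genes with a count, of each pathway list up to 3 genes of smallest p per direction and the most abundant gene not called, and the highest and lowest fold of the marker lists, of which the main ones are printed. A few genes the rule selects are left out here. Outside the rule, Pf4, Gp9, Gp1bb, Clec1b, Selp, Ly6g, Lyz2, Ly6c2 and Fcgr1 were named to describe the marker lists. The 61 named genes of the closing part do not include them.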

Additional observations from a re-analysis of the deposited data

How the results depend on the processing

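The alternatives were RLE and upper quartile scaling, DESeq2, limma-voom, no filter on low counts, a filter of at least 1 CPM in 3 libraries, a replicate block and the removal of each library. Under these 13, the numbers of tested genes called higher ran between 2362 and 2829 and those called lower between 2347 and 3164, both extremes of the split (2362 higher, 3164 lower) under upper quartile scaling. The calls of Rgs1, Rgs2, Rgs3, Rgs10 and Rgs19 held under all 13, and Rgs14 and Rgs18 passed under none. Rgs16 ranged between -0.62 and -0.38 over the removal of each library. The 61 named genes other than the members gave 786 values, of which 747 kept direction and call, 19 lost the call, 5 gained it and 15 changed sign, all 15 in genes that passed in neither fit. On removal of each library Gnal ran between -0.21 and 0.14, Ric8b between -0.1 and 0.03, Arrb2 between -0.02 and 0.02, Pik3cg between -0.01 and 0.02, Cd79b between -0.19 and 0.1 and Lck between -0.6 and 0.34; Pik3cg was also -0.02 under upper quartile scaling and 0 with the 1 CPM filter. The cause of these changes was not tested.

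The count of higher genes among the other alpha subunit regulators (main value 2) was 1 under upper quartile scaling, DESeq2, limma-voom, no filter, the 1 CPM filter and the replicate block, and 1 to 2 on removal of each library. Among receptor kinases and arrestins the count of lower genes (main value 1) was 0 under RLE scaling, DESeq2, no filter and the replicate block, 2 under upper quartile scaling, and 0 to 1 on removal of each library. Among chemoattractant receptors the count of higher genes (main value 8) ran between 6 and 8 over the alternatives, with 6 under DESeq2 and without thrombocytopenic replicate 1, and that of lower genes was 9 throughout. Among the other Rgs genes the count of lower genes was 0 to 1 on removal of each library. Without a filter, which adds genes of low count, the median log2 fold change was -0.19 for alpha subunits, 0.02 for beta and gamma subunits, -0.16 for effectors and 0.04 for cAMP receptors and phosphodiesterases. With the 1 CPM filter it was 0.01 for beta and gamma subunits and -0.21 for chemoattractant receptors. On removal of each library it ran between -0.21 and 0.07 for alpha subunits and between -0.12 and 0.06 for beta and gamma subunits. For cAMP receptors and phosphodiesterases it ran between -0.08 and -0.04. The sign of the first pair of medians was thus not stable on removal of a library. That of cAMP receptors and phosphodiesterases held there but changed without a filter.

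Summed CPM and the mean log2 CPM of a list, which weighs low genes equally, differed in sign for 4 marker lists. The mean log2 CPM, thrombocytopenic minus control, was -1.45 for platelet, -0.112 for B cell (exact permutation p = 0.6), -1.01 for neutrophil and -0.117 for monocyte markers. Leaving out Pf4 and Ppbp, an alternative chosen after seeing the data as was the transcript length, the platelet sum differed by -9.04 CPM.

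Deviations from the group means correlated at -0.0383, -0.0892 and -0.0127 between libraries of the same replicate number. Between libraries of unlike number they correlated at -0.0588 to 0.0883. These values cannot show whether libraries of the same number were prepared together. With the replicate block 5402 genes were called, 5371 of them among the 5626 called without it. No call of a member changed with the block, and Rgs16 stood at -0.46 (adjusted p = 0.00503).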
